A study of Homo sapiens with 12 samples.

Results

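The 6 genes DHRS1, DHRS2, DHRS3, DHRS4, DHRS7 and DHRS9 were examined among the 19973 genes with an identifier in the expression table. They encode enzymes of the short-chain dehydrogenase/reductase (SDR) superfamily. They were taken by symbol, and they had been selected on their FPKM responses to isovalerylspiramycin I (ISP-I) in these same libraries, DHRS2 as a gene with a very large rise in A549, so their responses are given here as a description without p values. RNA came from H460 and A549, established human cell lines of non-small cell lung cancer (NSCLC) grown in culture, H460 from a large cell carcinoma and A549 from an adenocarcinoma. Each line was either not treated (control) or exposed to ISP-I, a component of the macrolide antibiotic carrimycin, at 10 µM for 48 h. There were 3 libraries in each of the 4 groups, 12 in all, and each line stands for 1 tumour. Nothing in the sources used here says whether the 3 libraries of a group came from separate cultures, so the errors measure the spread between libraries, which may be technical.

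SDR enzymes carry electrons between NAD(P)H and the carbonyl or hydroxyl groups of small molecules, among them retinoids, steroids, sugars, lipid mediators and foreign carbonyl compounds. In retinoid metabolism they work in opposite directions: retinol dehydrogenases such as RDH10 and DHRS9 oxidise retinol to retinal on the way to retinoic acid, whereas reductases such as DHRS3 and DHRS4 return retinal to retinol. DHRS2, also called Hep27, reduces dicarbonyl compounds and has been described as a partner of MDM2, a ubiquitin ligase.

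DHRS2 (chr14:23630115-23645639, plus strand), DHRS4 (chr14:23953734-23969279, plus strand) and DHRS1 (chr14:24290598-24299780, minus strand) lie on the same stretch of chromosome 14 in hg38. DHRS7 (chr14:60144119-60169856, minus strand) is far from them on that chromosome. DHRS3 (chr1:12567910-12618210, minus strand) and DHRS9 (chr2:169064789-169096167, plus strand) are on other chromosomes. The table's coordinates of the 6 genes were identical to those of GENCODE version 44. Exons of every transcript of a gene were merged into the listed length, which was 7527 bases for DHRS2 and 2157 bases for DHRS4, so a single FPKM value covers coding parts and untranslated regions together.

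The bases just before the transcription start are shown for DHRS2 and DHRS9, the genes with higher levels under ISP-I in H460, and for DHRS3, which was lower in both lines. They are RefSeq promoters of GRCh38.p14, the 250 bases before the start, 5′ to 3′ on the strand of the gene. Capitals mark the matches to the searched motifs, which in these 3 windows are the TATA box (TATAAA), the GC box in either orientation (GGGCGG on its forward strand) and the core of the antioxidant response element (TGACNNNGC). The windows are chr14:23629865-23630114 on the plus strand for DHRS2, chr2:169066827-169067076 on the plus strand for DHRS9 and chr1:12618211-12618460 on the minus strand for DHRS3.
DHRS2: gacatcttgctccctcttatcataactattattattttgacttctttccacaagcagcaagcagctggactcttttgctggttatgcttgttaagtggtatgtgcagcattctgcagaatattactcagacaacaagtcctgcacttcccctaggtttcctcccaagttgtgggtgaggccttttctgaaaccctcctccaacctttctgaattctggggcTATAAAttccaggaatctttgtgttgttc
DHRS9: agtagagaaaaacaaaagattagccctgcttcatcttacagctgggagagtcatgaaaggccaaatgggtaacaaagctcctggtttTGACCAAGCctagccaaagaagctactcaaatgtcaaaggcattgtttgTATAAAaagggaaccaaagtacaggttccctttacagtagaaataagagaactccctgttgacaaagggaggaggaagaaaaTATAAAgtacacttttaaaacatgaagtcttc
DHRS3: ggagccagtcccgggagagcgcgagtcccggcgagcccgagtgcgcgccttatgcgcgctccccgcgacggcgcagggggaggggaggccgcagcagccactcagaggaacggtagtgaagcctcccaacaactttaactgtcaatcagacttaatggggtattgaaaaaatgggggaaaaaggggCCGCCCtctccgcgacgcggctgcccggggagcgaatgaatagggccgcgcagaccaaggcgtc

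DHRS2 held TATAAA 29 bases before its start and no other searched motif. DHRS9 held TATAAA at 114 and 32 bases before the start and TGACNNNGC, the core of the antioxidant response element, at 163 bases. The RefSeq start nearest to the 5′ end of DHRS9 in the table lies 2288 bases inside the gene, so this window belongs to one of its several starts. DHRS3 held no TATAAA and a single GC box (GGGCGG), on the reverse strand. DHRS1, whose window is not printed, also held TGACNNNGC, at 62 bases, and GC boxes at 33 and 22 bases. DHRS4 held GC boxes at 90, 78, 59 and 24 bases. Neither DHRS1 nor DHRS4 held TATAAA. A promoter entry was found for 5 of the 6 genes, and DHRS7 was not searched. GC content was 43.2% for DHRS2 and 39.2% for DHRS9, at percentiles 18.6 and 11.4 of the 35116 promoters, against 65.2% for DHRS3, 66.4% for DHRS1 and 70.8% for DHRS4. The median promoter had 58%. Of all promoters of that length, 10.7% held TATAAA, 42.6% held GGGCGG and 10.9% held TGACNNNGC on either strand. The other letters searched, on both strands, were CCAAT (held by 32.0% of promoters), TGACGTCA (1.65%), TGANTCA (6.57%) and CACGTG (6.35%), and none of these was in the windows of the 5 genes. A match describes the letters of the window and not the binding of a factor.

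The libraries held 14225849 to 17874422 reads on genes. ISP-I libraries of H460 differed from their controls across the whole transcriptome: the median log2 fold change of all tested genes was -0.15 in H460 and 0.02 in A549, and dividing FPKM by median-of-ratios factors moved the H460 median by 0.16 on the log2 scale. For this reason values after that scaling are given beside H460 values where they matter. Keratins marked both lines as epithelial, with 4 of 6 epithelial markers at 1 FPKM or more in untreated H460 and 6 of 6 in untreated A549. CDH1, the E-cadherin of epithelial junctions, was listed at 0 in every untreated H460 library. EPCAM was at or under 0.1 FPKM in untreated H460 too, so the 4 markers there were all keratins. None of the 5 alveolar markers reached 1 FPKM in any group, with sums of 0.236 to 0.275 FPKM in untreated H460 and 0.399 to 0.433 FPKM in untreated A549. The 5 markers of blood and endothelial cells summed to 0.0153 to 0.0977 FPKM in the untreated libraries of both lines. Because these are bulk samples, fewer expressing cells and less RNA per cell cannot be told apart.

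DHRS2 went from near absence to the most abundant of the 6 genes in both lines. In H460 it measured 0.194, 0.192 and 0.268 FPKM in the control libraries and 16.05, 14.5 and 20.1 FPKM with ISP-I. Means were 0.218 ± 0.0429 and 16.9 ± 2.88 FPKM (SD, n = 3), a ratio of 77.5. The lowest treated library lay far above the highest control, and the reads behind these values were 21 to 30 in controls and 1823 to 2246 with ISP-I.

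In A549, DHRS2 measured 0.672, 0.660 and 0.765 FPKM in controls and 94.7, 97.1 and 94.15 FPKM with ISP-I. Here the means were 0.699 ± 0.0573 and 95.3 ± 1.56 FPKM (SD, n = 3), a ratio of 136.4, with 72 to 85 reads in controls and 10164 to 11463 with ISP-I. The treated A549 libraries were close to each other, and every one was above every treated H460 library. The log2 fold change of FPKM + 1 was 3.87 (SE 0.136) in H460 and 5.83 (SE 0.065) in A549. A pseudocount of 1 understates these changes, since the control values lie below 1 FPKM. Among genes with reads, the level of DHRS2 moved from percentile 23.5 to 84.8 in H460 and from percentile 31.0 to 97.8 in A549.

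Untreated A549 already held more DHRS2 RNA than untreated H460, 3.21 times as much, and treated A549 held 5.64 times the level of treated H460. The ISP-I effect on DHRS2 was larger in A549 by 1.96 (SE 0.145) on the log2 scale of FPKM + 1, and by 1.64 after median-of-ratios scaling. A pseudocount of 1 widens this gap, since the H460 controls were the lower ones. With a pseudocount of 0.1 the log2 fold changes were 5.74 in H460 and 6.90 in A549, and with limma voom 6.25 and 7.08.

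**Figure D1:**
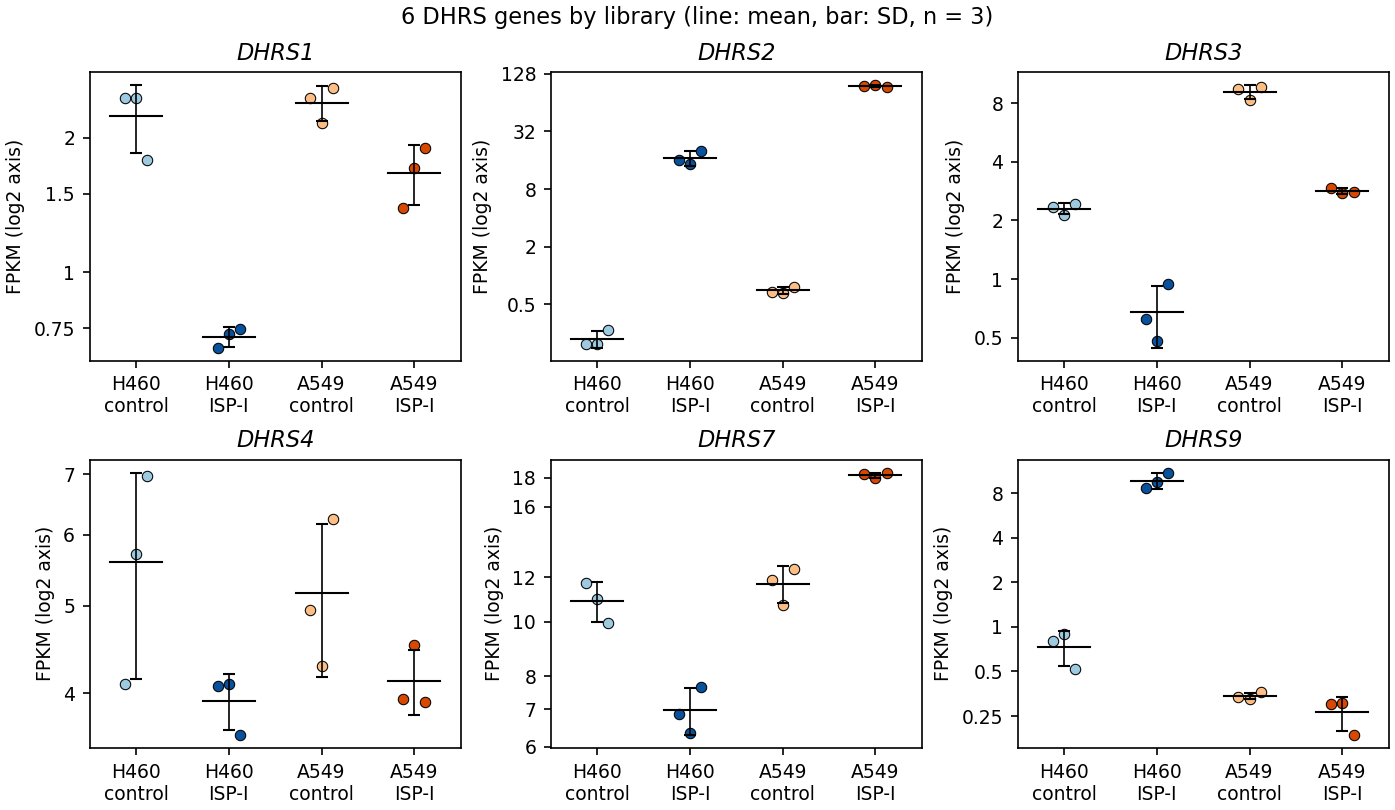
FPKM of the 6 DHRS genes in each of the 12 libraries (vertical axis on a log2 scale that differs between panels; points are libraries, the horizontal line is the mean of 3 and the bar the SD). DHRS2 is far above control with ISP-I in both lines, DHRS9 in H460 alone, and DHRS7 moves down in H460 and up in A549.

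DHRS9, a retinol and 3-alpha-hydroxysteroid dehydrogenase of the endoplasmic reticulum, was higher with ISP-I in H460 and stayed near the detection limit in A549. In H460 it measured 0.797, 0.895 and 0.519 FPKM in controls and 8.67, 9.57 and 11.03 FPKM with ISP-I. The H460 means were 0.737 ± 0.195 and 9.76 ± 1.19 FPKM (SD, n = 3), a ratio of 13.2 and a log2 fold change of 2.63 (SE 0.135), with no overlap between the groups.

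In A549, DHRS9 measured 0.337, 0.327 and 0.361 FPKM in controls and 0.304, 0.306 and 0.186 FPKM with ISP-I. These values rest on 18 to 20 reads per control library and 10 to 18 per treated library, and the log2 fold change was -0.09 (SE 0.060). The treated libraries all lay below the controls, by a margin that counting of so few reads cannot resolve. Treated H460 thus held 36.8 times the DHRS9 level of treated A549, against 2.16 times in the controls. The effect in A549 minus that in H460 was -2.72 (SE 0.141) on the log2 scale.

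DHRS3, the retinal reductase that is itself a known retinoic acid target, was lower in both lines. In A549 it measured 9.46, 8.32 and 9.69 FPKM in controls and 2.95, 2.775 and 2.80 FPKM with ISP-I. Its A549 means were 9.16 ± 0.732 and 2.84 ± 0.0972 FPKM (SD, n = 3), 3.22 times lower with ISP-I, with 430 to 503 reads in controls and 141 to 155 in treated libraries. Groups did not overlap, and the log2 fold change was -1.40 (SE 0.082).

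In H460, DHRS3 measured 2.33, 2.135 and 2.425 FPKM in controls and 0.621, 0.478 and 0.939 FPKM with ISP-I. The mean was 3.38 times lower with ISP-I, nearly the same ratio as in A549 at a lower level. On the scale of FPKM + 1 the log2 fold change was -0.98 (SE 0.117), and -0.82 after median-of-ratios scaling. Untreated A549 held 3.985 times the DHRS3 level of untreated H460, a log2 difference of 1.62 (SE 0.102), the widest gap between the untreated lines among the 6 genes. MIR6730 and RNU6ATAC18P lie within DHRS3 on the same strand.

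DHRS1, an enzyme of the endoplasmic reticulum that reduces carbonyl groups of steroids and foreign compounds, was lower with ISP-I in both lines. In H460 it measured 2.46, 2.46 and 1.79 FPKM in controls and 0.678, 0.728 and 0.749 FPKM with ISP-I, so every treated library lay below every control. That is 3.11 times lower at the means, with a log2 fold change of -0.91 (SE 0.110), or -0.74 after median-of-ratios scaling.

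In A549, DHRS1 measured 2.46, 2.16 and 2.59 FPKM in controls and 1.39, 1.71 and 1.90 FPKM with ISP-I. The A549 groups did not overlap either, but the mean was only 1.44 times lower, with a log2 fold change of -0.35 (SE 0.097). The control levels of DHRS1 in the lines differed by 0.08 on the log2 scale. DHRS1 overlaps an unnamed gene on the opposite strand, and the strand setting of the counting is not given in the sources used here.

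DHRS7, a reductase of the endoplasmic reticulum membrane that acts on steroids and carbonyl compounds, was the most abundant of the 6 genes in both untreated lines. It went down in H460 and up in A549. H460 libraries measured 11.7, 10.98 and 9.96 FPKM in controls and 6.85, 6.36 and 7.67 FPKM with ISP-I, a ratio of 0.640 and a log2 fold change of -0.58 (SE 0.118), or -0.32 after median-of-ratios scaling.

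A549 libraries measured 11.9, 10.7 and 12.4 FPKM of DHRS7 in controls and 18.3, 17.95 and 18.3 FPKM with ISP-I, a ratio of 1.56 and a log2 fold change of 0.60 (SE 0.072). Groups did not overlap in either line. From control levels that differed by 0.09 on the log2 scale, the effect was higher in A549 by 1.18 (SE 0.127), and by 0.89 after median-of-ratios scaling. PCNX4 and SCOCP1 overlap DHRS7 on the opposite strand.

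DHRS4, a peroxisomal reductase of retinal and other carbonyl compounds, differed little beside the spread of its controls. H460 libraries measured 4.092, 5.71 and 6.97 FPKM in controls and 4.07, 4.091 and 3.59 FPKM with ISP-I, so the groups were apart by less than a single read would give. A549 libraries measured 4.95, 4.29 and 6.25 FPKM in controls and 3.94, 4.52 and 3.91 FPKM with ISP-I, and these overlapped. The log2 fold change was -0.40 (SE 0.167) in H460, or -0.16 after median-of-ratios scaling, and -0.26 (SE 0.122) in A549. The effect in A549 minus that in H460 was 0.14, which turned to -0.11 after that scaling. DHRS4L2, a near-identical copy, starts 0.595 kb after DHRS4, and DHRS4-AS1 overlaps it on the opposite strand, so how reads were shared out among them is uncertain.

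**Figure D2:**
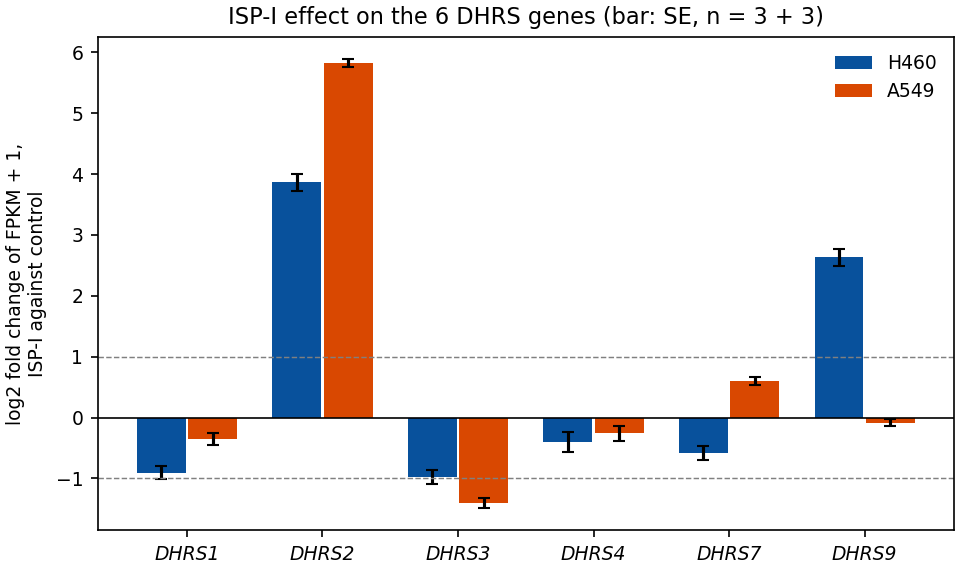
Log2 fold change of FPKM + 1 with ISP-I against control for the 6 DHRS genes in H460 and A549 (bars are estimates from 3 against 3 libraries, error bars the SE, dashed lines a fold change of 2). DHRS2 reaches 3.87 in H460 and 5.83 in A549, DHRS9 reaches 2.63 in H460 and -0.09 in A549, and DHRS3 is below 0 in both lines.

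By the rule used for all genes, more than a 2-fold change with a Benjamini-Hochberg adjusted p below 0.05 in limma, 2 of the 6 were called higher in H460 (DHRS2 and DHRS9) and 0 lower. Of all 13423 genes tested in H460, 10.5% were called higher and 15.2% lower. In A549 1 was called higher (DHRS2) and 1 lower (DHRS3), where 4.2% of 13705 genes were called higher and 3.51% lower. Groups did not overlap for 6 of 6 genes in H460 and 5 of 6 in A549, against 72.7% and 65.5% of all genes tested. For the difference between the lines, 2 were called higher in A549 (DHRS2 and DHRS7) and 1 lower (DHRS9), with 10.1% of genes called higher and 5.93% lower. DHRS7 was no longer called after median-of-ratios scaling. The call of DHRS2 depends on the scale too: its voom changes within the lines, 6.25 in H460 and 7.08 in A549, were less than 1 apart. Between the untreated lines 1 was called higher in A549 (DHRS3) and 0 lower, with 8.5% of genes called higher and 5.47% lower. Since the genes were picked for their response, these counts are read against no expectation. DHRS1 and DHRS3 in H460 were at the edge of a fold change of 2 on the scale of FPKM + 1, and limma voom on the recovered reads called both lower.

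Summed over the 6 genes, the level was 21.96 ± 0.401 FPKM in untreated H460 and 38.9 ± 4.51 FPKM with ISP-I (SD, n = 3). In A549 the sum was 29.4 ± 2.81 FPKM in controls and 122.4 ± 1.71 FPKM with ISP-I. FPKM is scaled by the listed gene length, which merges the exons of every transcript. Levels of different genes can thus be set side by side only roughly. DHRS2 made up 0.993% of the sum in untreated H460 and 43.2% with ISP-I, and 2.38% and 77.9% in A549. DHRS7, which led the controls with 49.6% in H460 and 39.7% in A549, held 17.9% and 14.9% with ISP-I. DHRS9 went from 3.35% to 25.1% in H460 and from 1.16% to 0.216% in A549.

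**Figure D3:**
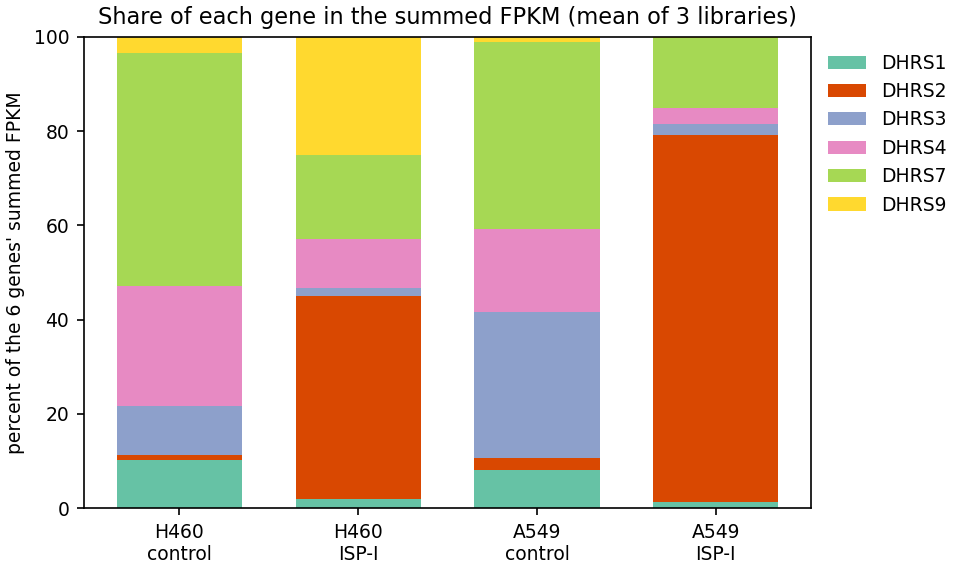
Percent of the summed FPKM of the 6 DHRS genes held by each gene, by group (stacked bars, mean of 3 libraries). DHRS7 holds the widest band in the controls, 49.6% in H460 and 39.7% in A549, and DHRS2 with ISP-I, 43.2% and 77.9%.

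The order of levels in untreated H460 was DHRS7, DHRS4, DHRS3, DHRS1, DHRS9 and DHRS2, and with ISP-I it was DHRS2, DHRS9, DHRS7, DHRS4, DHRS1 and DHRS3. In both H460 groups DHRS1 and DHRS3 overlapped and cannot be ranked against each other. Untreated A549 had DHRS7, DHRS3, DHRS4, DHRS1, DHRS2 and DHRS9, and treated A549 had DHRS2, DHRS7, DHRS4, DHRS3, DHRS1 and DHRS9. No neighbours in either A549 order overlapped. DHRS2 thus moved from the last place to the first in H460 and from the fifth to the first in A549. These places depend on the listed lengths. In untreated H460 DHRS2 had 21 to 30 reads over 7527 bases, and DHRS9 had 29 to 51 reads over 3750 bases.

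On the scale of FPKM + 1, no tested chromosome 14 gene around DHRS2, DHRS4 and DHRS1 was called higher with ISP-I beside DHRS2 itself. That scale draws genes under 1 FPKM toward 0. Within 500 kb of any of the 3 genes, 60 other genes were listed. In H460 38 of them were tested, with 0 called higher and 4 called lower. Their median log2 fold change was -0.17, or -0.03 after median-of-ratios scaling, with a range from -1.70 to 0.72. Of all genes tested in H460, 10.5% were called higher and 15.2% lower, with a median of -0.15. In A549 39 neighbours were tested, with 0 called higher and 1 lower, a median of -0.07 and a range from -1.35 to 0.80. Of all genes tested in A549, 4.2% were called higher and 3.51% lower, with a median of 0.02. At an unadjusted p under 0.05 in limma, 6 neighbours were higher in H460 and 8 in A549. Limma voom, which tests its own set of genes, called 5 and 4 neighbours higher.

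PCK2, the mitochondrial phosphoenolpyruvate carboxykinase, was the neighbour called lower in both lines: 7.69 to 1.69 FPKM in H460 (limma adjusted p = 2.2e-05) and 8.12 to 2.545 FPKM in A549 (adjusted p = 2.6e-05). GMPR2, RABGGTA and NOP9, named after their values were seen, were the other 3 called lower in H460, where DHRS1 beside them was lower as well. After median-of-ratios scaling 2 of these neighbours were still called lower in H460, with GMPR2 at -0.996 and NOP9 at -0.915 falling short of a 2-fold change, and voom called 12 lower there and 3 in A549. NOP9 starts 0.07 kb from the DHRS1 gene. NGDN, at the top of the range in both lines, measured 11.3 and 19.2 FPKM in H460 and 8.73 and 16.01 FPKM in A549, under a fold change of 2.

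JPH4, a junctophilin of membrane contact sites and the gene nearest to DHRS2 at a gap of 51.3 kb, was picked out after its values were seen. It was barely present, at 0 to 0.0746 FPKM in untreated H460 and 0.116 to 0.272 FPKM with ISP-I. In A549 it went from 0 to 0.0256 FPKM in controls to 0.211 to 0.291 FPKM with ISP-I, and limma voom called it higher in both lines. The ratio of its means was 7.42 in H460 and 28.1 in A549, over controls at or near 0. Its treated level in A549 was a small fraction of that of DHRS2. On the other side, DHRS4 is the next listed gene after DHRS2, at a gap of 308.1 kb.

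**Figure D4:**
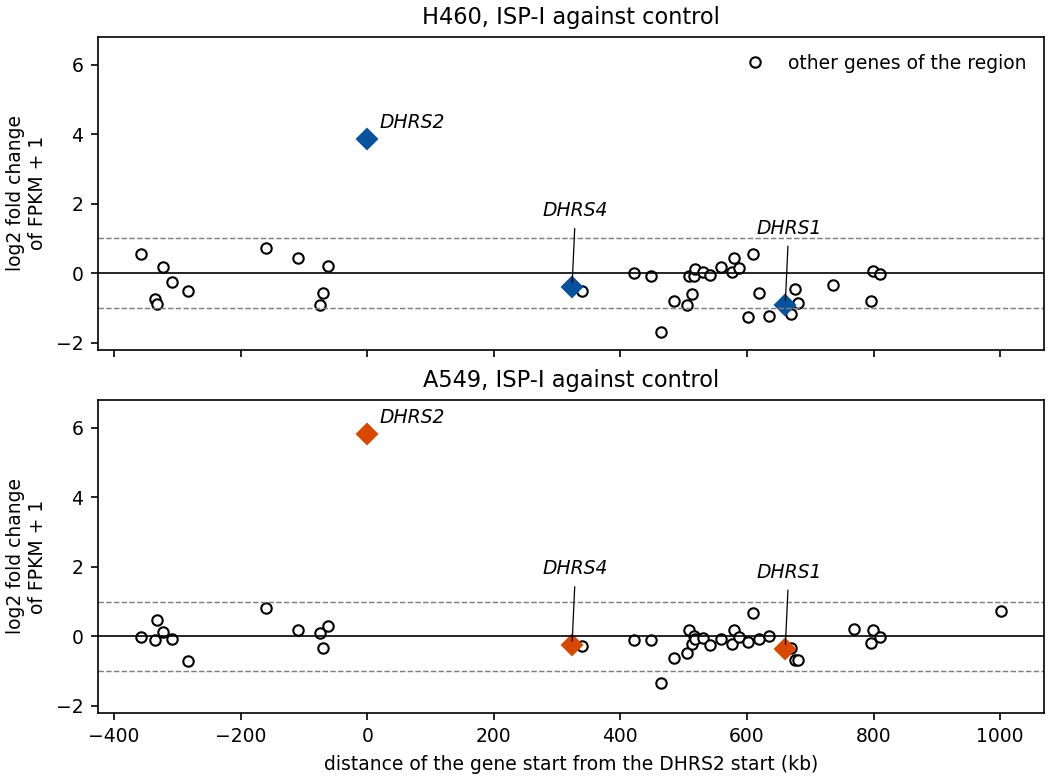
Log2 fold change of FPKM + 1 with ISP-I for genes around DHRS2, by distance of the gene start from the DHRS2 start in kb (upper panel H460, lower panel A549; diamonds are the DHRS genes described here, circles other tested genes, dashed lines a fold change of 2). DHRS2 stands at 3.87 and 5.83, while the circles lie between -1.70 and 0.72 in H460 and between -1.35 and 0.80 in A549.

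Other genes of the DHRS series showed no rise like that of DHRS2. Of 8 tested in H460, 0 were called higher and 3 lower: DHRS11 (3.92 to 1.07 FPKM, limma adjusted p = 1.02e-05), DHRS13 (2.996 to 0.259 FPKM, adjusted p = 8.61e-06) and DHRS7C (1.75 to 0.0462 FPKM, adjusted p = 2.35e-06). At an unadjusted p under 0.05, 1 was higher in H460, and voom called 0 higher there. Of 7 tested in A549, limma and voom each called 0, with 1 higher and 2 lower at an unadjusted p under 0.05. The median log2 fold change of these genes was -0.36 in H460 and 0.04 in A549, beside -0.15 and 0.02 over all genes. DHRS4L2, the copy of DHRS4, measured 1.58 and 0.794 FPKM in H460 and 1.70 and 1.23 FPKM in A549 and was called in neither.

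Among retinol and hydroxysteroid dehydrogenases, HSD17B14, which oxidises estradiol at position 17, was called higher in both lines. It measured 1.09 ± 0.141 and 3.76 ± 0.624 FPKM in H460 (SD, n = 3; log2 fold change 1.18, limma adjusted p = 5.09e-05) and 4.33 ± 0.517 and 25.6 ± 2.035 FPKM in A549 (log2 fold change 2.32, limma adjusted p = 1.05e-06). HSDL2 and HSD17B11, called lower in H460, were no longer called after median-of-ratios scaling, at -0.90 and -0.81 against -1.17 and -1.06. In all 1 of 20 was called higher and 2 lower in H460, and 1 of 23 higher and 0 lower in A549, where 3 were lower at an unadjusted p under 0.05 and voom called 1 lower. RDH10, the retinol dehydrogenase that works against DHRS3, measured 3.502 and 2.37 FPKM in H460 and 4.25 and 3.72 FPKM in A549 and was called in neither.

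Of the remaining SDR genes, 0 of 23 were called higher and 4 lower in H460: NMRAL1, an NADPH sensor (23.2 to 4.40 FPKM, limma adjusted p = 1.27e-06), PECR, a peroxisomal enoyl reductase (4.045 to 0.676 FPKM, adjusted p = 3.25e-06), SPR, the last enzyme of tetrahydrobiopterin synthesis (76.4 to 15.85 FPKM, adjusted p = 1.87e-05), and CBR1, a broad carbonyl reductase (14.2 to 5.45 FPKM, adjusted p = 2.88e-05). CBR1 was at -0.98 after median-of-ratios scaling, just short of a fold change of 2. At an unadjusted p under 0.05, 3 were higher in H460, and voom called 0 higher. In A549 1 of 25 was called higher and 2 lower. The 2 called lower were HPGD, which inactivates prostaglandins (35.6 to 8.54 FPKM, limma adjusted p = 1.2e-05), and PECR (4.23 to 1.43 FPKM, adjusted p = 3.55e-05).

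The aldo-keto reductases, another family that reduces carbonyl compounds with NADPH, had more members called lower than higher in H460. There 0 of 14 were called higher and 7 lower (4 after median-of-ratios scaling), where 15.2% of all genes were called lower, with 2 higher at an unadjusted p under 0.05 and 1 higher by voom, and the median log2 fold change was -0.77. AKR1B10, a retinal reductase, fell in H460 from 519 to 90.3 FPKM (limma adjusted p = 1.85e-06) and in A549 from 1010 to 297 FPKM (adjusted p = 1.61e-06). In A549 it was the 1 gene of 14 called lower, and KCNAB2, a potassium channel subunit of this family, the 1 called higher (2.30 to 6.22 FPKM, adjusted p = 7.51e-06). At an unadjusted p under 0.05 in limma, 8 of the 14 were lower in A549 and 3 higher. The median log2 fold change there was -0.23, beside 0.02 over all genes. KCNAB2 fell in H460, from 2.595 to 0.708 FPKM (adjusted p = 1.77e-05). AKR1C2 fell in H460 from 88.9 to 29.0 FPKM (adjusted p = 1.04e-05), with near-identical copies in the AKR1C cluster among which reads are hard to divide.

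Retinoid handling and response genes moved both ways. In H460 2 of 14 were called higher and 5 lower, and in A549 1 of 19 higher and 3 lower. CRABP2, which carries retinoic acid to its receptors, rose in H460 from 1.515 to 34.9 FPKM (limma adjusted p = 1.55e-06) and in A549 from 3.02 to 14.1 FPKM (adjusted p = 2.01e-06). RARB and RARG, retinoic acid receptors, fell in H460 from 2.42 to 0.277 FPKM (adjusted p = 3.015e-06) and from 9.90 to 3.01 FPKM (adjusted p = 1.44e-05). RARA, also a retinoic acid receptor and named after its call was seen, was the other gene called higher in H460. ALDH1A1, which makes retinoic acid from retinal, fell in A549 from 1651 to 359.8 FPKM (adjusted p = 4.1e-06), and STRA6, a retinol transporter, from 9.295 to 2.03 FPKM (adjusted p = 1.54e-06). ALDH1A1 was called lower in H460 as well. DHRS3 was lower in both lines beside these changes.

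Of the genes tied to Hep27 by earlier work, MYB, its activator, was named after its values were seen. It measured 0.128 and 0.403 FPKM in H460 and 0.0834 and 0.188 FPKM in A549. Limma on log2(FPKM + 1) called it in neither line, and voom called it higher in both. MDM2 was called higher in A549. It measured 6.65, 6.64 and 4.97 FPKM in untreated A549 and 21.8, 20.4 and 21.2 FPKM with ISP-I (log2 fold change 1.65, limma adjusted p = 7.89e-06). In H460 MDM2 measured 4.08 and 3.785 FPKM at the means and was not called. A link between MDM2 and DHRS2 was not tested, and RNA levels do not measure a partnership of proteins.

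Marker levels moved with treatment as well. In A549 CDH1 fell from 4.90 to 0.756 FPKM (limma adjusted p = 2.74e-06), and in H460 KRT19 fell from 121.9 to 56.9 FPKM (adjusted p = 0.00025), at -0.79 after median-of-ratios scaling. The 6 epithelial markers summed to 1436 to 1826 FPKM in untreated A549 and 1252 to 1266 FPKM with ISP-I, and to 357.8 to 432.3 and 328.6 to 419.6 FPKM in H460. The 5 blood and endothelial markers summed to 0.281 to 0.3925 FPKM in treated A549, nearly all of it VWF, with PTPRC, CD3E and PECAM1 at or under 0.1 FPKM. Their part in the DHRS values was not tested.

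The genes whose pattern over the 12 libraries was most like that of DHRS2 were MT1F, ANKRD1, CD22, RFPL4A and PLA2G4C. Likeness was the root mean square difference of log2(FPKM + 1), each gene centred on its own mean, over 8057 genes with at least 5 FPKM in some group. The difference was 0.915 for MT1F, 0.962 for ANKRD1, 0.993 for CD22, 1.09 for RFPL4A and 1.095 for PLA2G4C, where the root mean square of DHRS2 about its own mean was 2.58. They were chosen for this pattern and carry no test.

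MT1F, a metallothionein that binds zinc and copper, went in H460 from 0.679 to 12.1 FPKM and in A549 from 5.22 to 97.95 FPKM, so its treated levels were near those of DHRS2 and its A549 control was higher. ANKRD1, a nuclear cofactor known as a target of YAP, went in H460 from 0.363 to 35.1 FPKM and in A549 from 5.82 to 65.8 FPKM. CD22, a lectin best known from B cells, went from 0.00356 to 4.76 FPKM and from 0.863 to 18.85 FPKM. RFPL4A was listed at 0 in untreated H460 and reached 4.39 FPKM with ISP-I, and went from 0.0872 to 10.5 FPKM in A549; it has near-identical copies, so its reads may be shared. PLA2G4C, a cytosolic phospholipase A2, went in H460 from 0.111 to 13.0 FPKM and in A549 from 0.399 to 13.15 FPKM, the same treated level in both lines where DHRS2 differed.

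**Figure D5:**
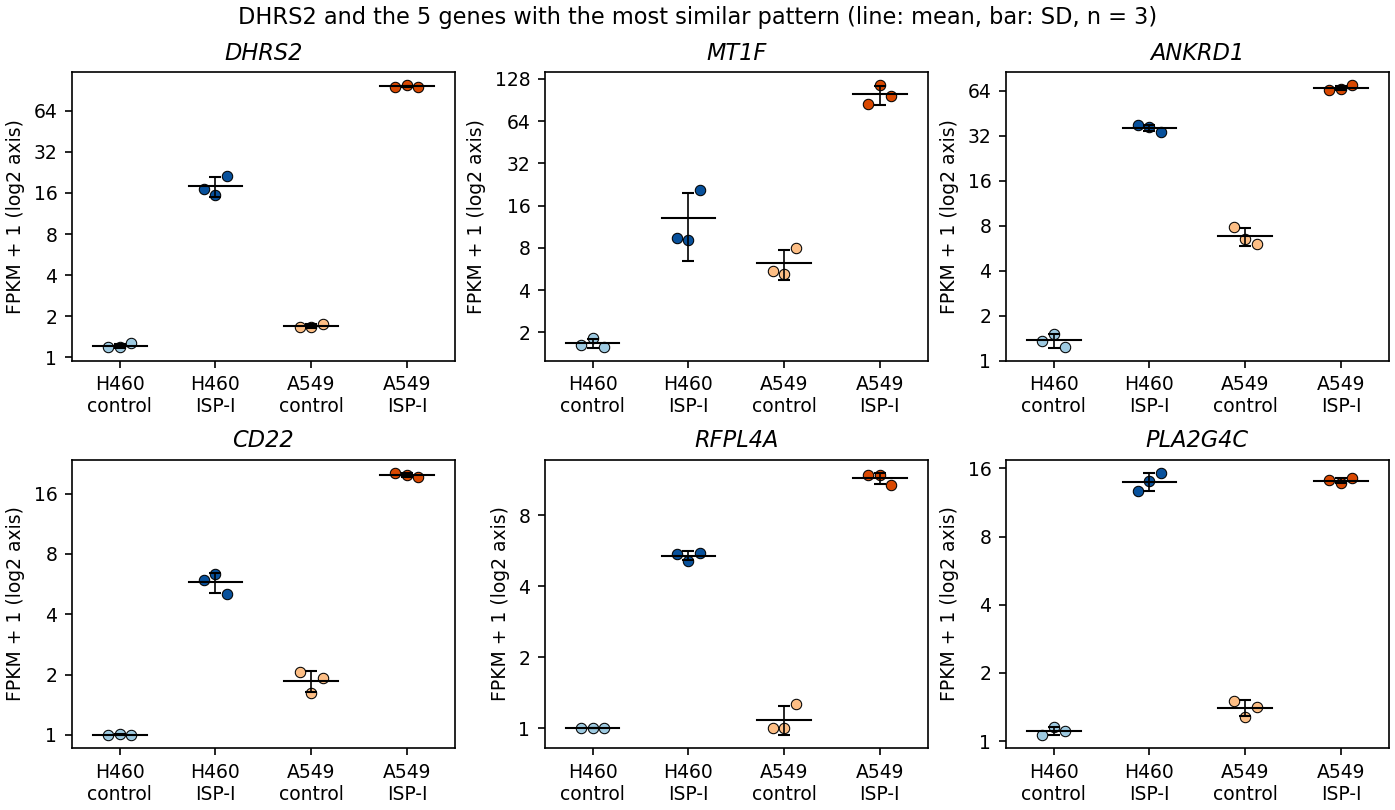
FPKM + 1 of DHRS2 and the 5 genes with the most similar pattern, by library (vertical axis on a log2 scale that differs between panels; points are libraries, the horizontal line is the mean of 3 and the bar the SD). Every gene is higher with ISP-I in both lines without overlap, and treated PLA2G4C is at 13.0 FPKM in H460 and 13.15 in A549 while treated DHRS2 is at 16.9 and 95.3.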

How the data were processed

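Paired-end RNA-seq libraries were filtered with FastQC, mapped to hg38 with HISAT2 and counted on genes with HTSeq 0.9.1 by the authors, who deposited FPKM per gene and library. The annotation version and strand setting are not given in the sources used here. Whole reads were recovered from FPKM and gene length in every library (tolerance 0.01 reads). Left out were 4 broken lines. Column names give the line, the treatment and a running number within the line, which is not the replicate number of the labels, and libraries were numbered in column order within a group.

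The 6 genes, the gene lists and the tests were chosen with earlier results of these data known. Within each line, log2(FPKM + 1) was compared with limma 3.58.1 (R 4.3.3, mean-variance trend, Benjamini-Hochberg) for genes averaging 0.1 FPKM or more; calls needed more than a 2-fold change with an adjusted p below 0.05. The 12 libraries were fitted together for the difference between the lines and for the untreated lines, with a log2 difference above 1 needed for a call. The test was tried on simulated data. Alternatives were a pseudocount of 0.1, a mean of 1 FPKM, no filter, median-of-ratios scaling, limma voom on recovered reads (at least 10 in 3 libraries), leaving out each library and, between the lines, the column number as a block. Median-of-ratios factors were 1.09 to 1.12 in H460 controls and 0.899 to 0.920 in treated H460. Errors of FPKM are SD over libraries.

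Beside the 6 genes, named were called DHRS genes and DHRS2 neighbours averaging 1 FPKM or more, the 3 called genes with the smallest p per list and line, and the 5 genes most like DHRS2. Other genes named in the text, among them CBR1, AKR1C1, RDH10, DHRS4L2 and NGDN, fall outside this rule. Lists were written from general knowledge. A planned comparison of protein sequences was not run, and proteins were not analysed here. Some genes of the lists are not reported here. Promoters were RefSeq entries of GRCh38.p14, with the 50 bases after the start left out. Tables and figures used Python 3.11.15, pandas 2.3.3, numpy 2.4.6 and matplotlib 3.10.9.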

Additional observations from a re-analysis of the deposited data

Results flagged for a closer look

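For DHRS7 and DHRS9 every ISP-I library lay below its controls in one line and above them in the other. The effect in A549 minus that in H460 was 1.18 for DHRS7 and -2.72 for DHRS9 on the log2 scale. Both are among the calls counted for the difference between the lines, DHRS7 not after median-of-ratios scaling, and no p is given because the genes were picked for their response. DHRS9 in A549 rests on 10 to 20 reads per library, too few to resolve a direction there.

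For other named genes the interaction of line and treatment passed the threshold (limma, Benjamini-Hochberg). Among SDR genes the effect in A549 minus that in H460 was 1.91 for DHRS13 (adjusted p = 2.65e-06), 1.30 for DHRS7C (adjusted p = 1.68e-06), 1.14 for HSD17B14 (adjusted p = 8.84e-05), 1.67 for NMRAL1 (adjusted p = 3.4e-06), 1.45 for SPR (adjusted p = 0.00043) and -1.89 for HPGD (adjusted p = 2.57e-06). HPGD was near 0 in both H460 groups and DHRS7C near 0 in both A549 groups, so these differences come from the other line. HSD17B14 was at 0.88 after median-of-ratios scaling.

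Among aldo-keto reductases the difference was 1.74 for AKR1C2 (adjusted p = 9.5e-07), 1.60 for AKR1C1 (adjusted p = 1.23e-06) and 2.20 for KCNAB2 (adjusted p = 2.06e-08), which was called in opposite directions in the lines. In the other lists it was -1.88 for CRABP2 (adjusted p = 4.71e-05), -1.28 for STRA6 (adjusted p = 1.4e-06), 1.74 for MDM2 (adjusted p = 2.76e-06) and -1.77 for CDH1 (adjusted p = 6.78e-08), the last nearly absent from H460. Of 40 chromosome 14 neighbours tested, 4 were called higher for this difference and 0 lower. Of all genes tested, 10.1% were called higher and 5.93% lower. After median-of-ratios scaling 2 neighbours were called. The 4 neighbours were named after their values were seen. The difference was 1.35 for BCL2L2 (adjusted p = 1.6e-06), whose log2 fold changes of -0.90 in H460 and 0.46 in A549 were each under a 2-fold change, and it was 1.07 after median-of-ratios scaling. It was 1.001 for THTPA (adjusted p = 0.000286), or 0.80 after that scaling, 1.09 for GMPR2 (adjusted p = 1.42e-05) and 1.24 for RABGGTA (adjusted p = 5.3e-06), or 0.82 and 1.01 after median-of-ratios scaling.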

How the results depend on the processing

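No sign of the 12 log2 fold changes of the 6 genes within the lines changed under any alternative. DHRS2 ranged from 3.74 to 6.25 in H460 and from 5.805 to 7.08 in A549, DHRS9 in H460 from 2.54 to 3.74 and DHRS3 in H460 from -1.81 to -0.82. With a pseudocount of 0.1 and with voom, 4 and 4 of the 6 genes were called in H460 in place of 2, and 2 and 3 between the untreated lines in place of 1. Called SDR genes other than the 6 numbered 16 and 16 in place of 10 in H460, 7 and 7 in place of 4 in A549, and 8 and 7 in place of 4 between the untreated lines. For the difference between the lines they numbered 12 with a pseudocount of 0.1 in place of 6, and 6 to 10 when a library was left out, the 10 without H460 ISP-I library 3. A pseudocount of 1 draws genes under 1 FPKM toward 0. No paired analysis was possible because the column numbers of controls and treated libraries within a line are not shared. Between the lines these numbers are shared, and with them as a replicate block, added after the data were seen, 3 of the 6 genes and 6 other SDR genes were called for the difference between the lines, and 1 and 4 between the untreated lines, the counts without the block. Same-numbered libraries did not deviate together (correlations -0.571 to 0.473). Depth limits DHRS9 in A549 and DHRS2 in untreated H460, at 10 to 30 reads per library.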
